A study of Homo sapiens with 4 samples.

Results

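The RAB GTPases are the largest branch of the RAS superfamily, and the genes described here are those whose symbol in the deposited table is RAB, a number and at most a letter and a further digit, with pseudogenes left out. The rule found 63 genes among the 60671 rows of the table. It also matched 8 pseudogenes, which were set aside and were listed at 0 in all 4 libraries. The libraries were made from polyadenylated RNA of H9, an established human embryonic stem cell line, grown in mTeSR medium without further treatment. There were 2 libraries of control H9 cells and 2 of cells labelled CFIm25 KO+ 3Flag-CFIm25 overexpression, called KO+OE here. CFIm25, encoded by NUDT21, is a subunit of the complex that guides cleavage and polyadenylation of mRNA. Per the study, the rescue line came from 1 clone edited near the start codon that kept a shortened protein at a low level, with tagged CFIm25 supplied from a lentivirus under an EF1 promoter, so the KO+OE group is a rescue of 1 clone and not a loss of the factor. The labels call the comparison libraries control H9, and the study sets the rescue against mock control cells, which had been transfected with the empty editing vector. Whether the control libraries are those mock cells or unedited H9 is not stated in the labels.

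RAB proteins are molecular switches. Bound to GTP they sit on a membrane and recruit effectors that form, move, tether and fuse vesicles, and bound to GDP they are drawn off the membrane by a GDP dissociation inhibitor. Exchange factors load GTP, GTPase-activating proteins end the active state, and a prenyl group added by a dedicated transferase anchors the protein. Each compartment carries its own RABs, so the set of RAB genes a cell expresses reflects the routes its membranes use.

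Values were read as TPM, a measure of transcript abundance that divides the reads of a gene by its length and scales every library to a common total. Levels can thus be compared between genes of a library, though base composition is not corrected for. Between libraries a value is a share of the total, and small differences can move with the scaling. Of the 63 RAB genes, 48 had a mean of at least 1 TPM over the 4 libraries and were tested. The other 15 had means of 0 to 0.795 TPM. The 4 libraries held the RAB genes at 1546 and 1547 TPM in control and 1538 and 1529 TPM in KO+OE, which is 0.155% to 0.157% of each library. All 8 pluripotency markers examined were detected in every library, with POU5F1 at 2164 to 2212 TPM and NANOG at 15.9 to 19.9 TPM. The 8 germ layer markers did not exceed 0.59 TPM in any library, and SOX17 was listed at 0 in all 4. Of the fibroblast markers, VIM was at 496 to 514 TPM and COL1A1 at 53.9 to 55.6 TPM, while COL3A1 did not exceed 0.02 TPM. NUDT21 itself was at 161 and 152 TPM in control and 162 and 157 TPM in KO+OE, and the KO+OE values hold the edited and the introduced transcripts together. In bulk RNA, fewer cells of a type and less RNA per cell cannot be told apart.

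The RAB repertoire was uneven. There were 9 members with a mean of at least 50 TPM, 16 between 10 and 50 TPM, 23 between 1 and 10 TPM and 15 below 1 TPM. The 5 highest members, RAB34, RAB1B, RAB11B, RAB17 and RAB5C, together held 51.6% ± 0.55 (SD over 4 libraries) of all RAB TPM, and the 10 highest held 73.8% ± 0.59. RAB34, which acts at the Golgi, in macropinocytosis and in the assembly of primary cilia, was highest, at 275 and 258 TPM in control and 275 and 274 TPM in KO+OE. RAB17, a RAB of polarised epithelial cells that serves apical recycling, stood at 109.6 and 113 TPM in control and 114 and 104 TPM in KO+OE. For both genes the groups overlapped. RAB25, an epithelial relative of RAB11, followed at 97.2 to 103 TPM, then RAB7A of late endosomes at 73.4 to 78.8 TPM, RAB11A at 62.8 to 72.0 TPM and RAB13 of tight junction traffic at 61.2 to 64.9 TPM. The order of levels was firm only at some steps. Among the 47 neighbouring pairs of tested members, 37 had ranges that overlapped over the 4 libraries. The ranges were not paired by library, so neighbours with overlapping ranges can still keep their order within libraries. RAB11A, for example, was above RAB13 in every library. RAB34 lay above RAB1B, RAB1B above RAB11B, RAB25 above RAB7A, RAB7A above RAB11A and RAB13 above RAB4A in every library, while RAB11B, RAB17, RAB5C and RAB25 ran into each other. The SD over the 4 libraries had a median of 4.86% of the mean for members of 10 TPM or more and of 13.8% for members of 1 to 10 TPM.

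**Figure D1:**
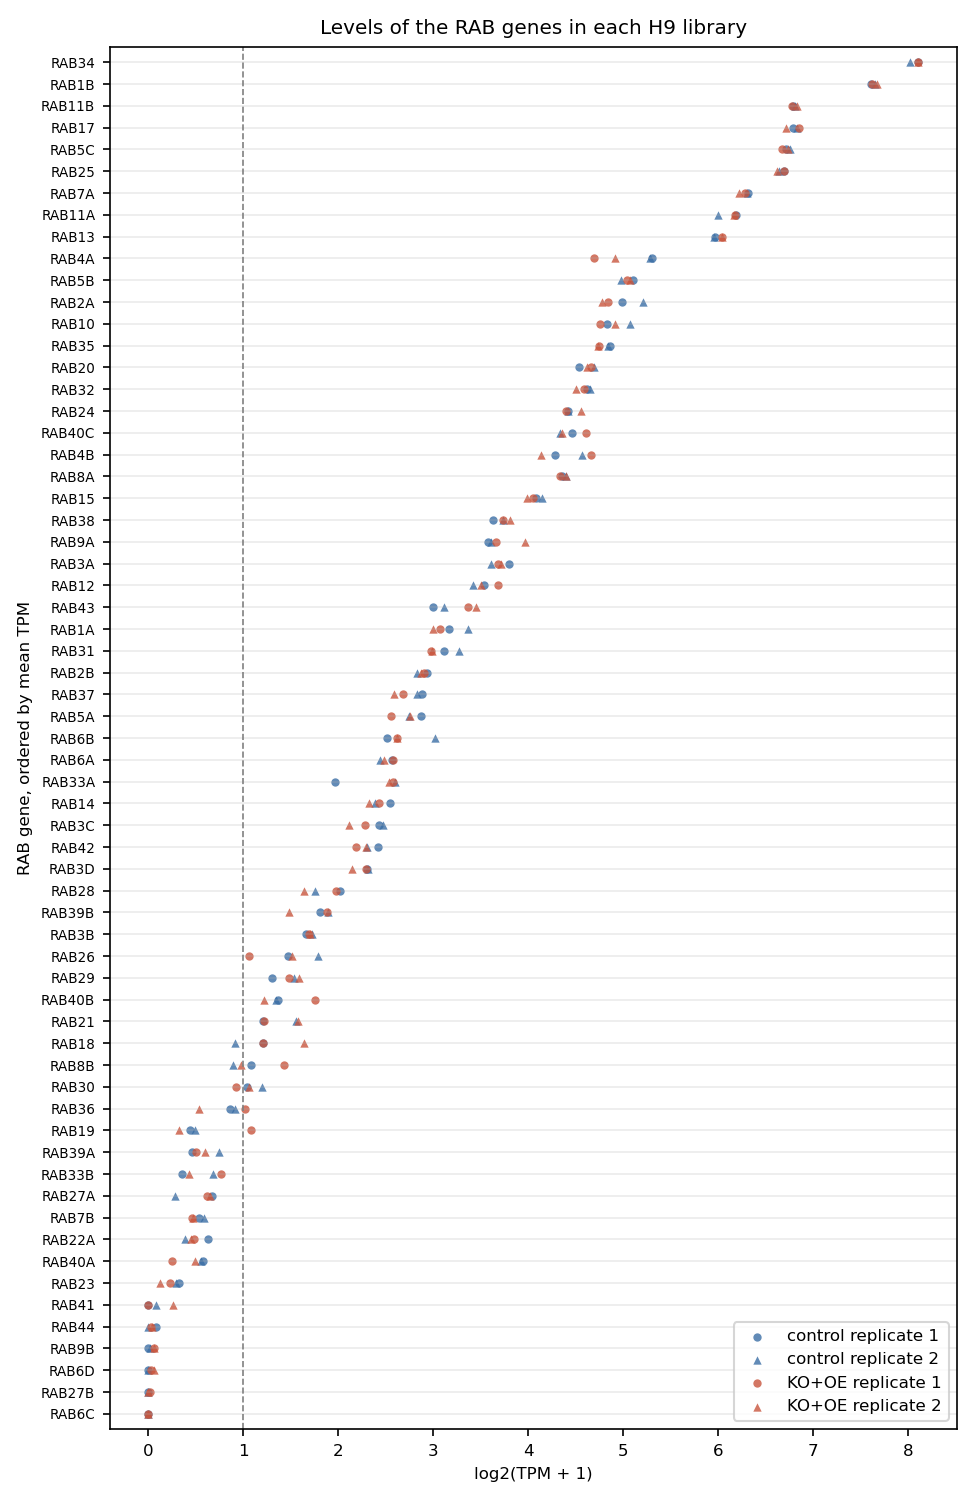
Levels of all 63 RAB genes as log2(TPM + 1), 1 row per gene ordered by mean TPM, with blue marks for the 2 control and red marks for the 2 KO+OE libraries. The dashed line marks 1 TPM, and RAB34, at 258 to 275 TPM, is the highest row; RAB4A is the row among the 10 highest whose red marks both lie well below its blue marks.

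Grouped by the route each protein is best known for, recycling and delivery to the plasma membrane held the largest share of RAB TPM. Its 13 members, with RAB11B, RAB17, RAB25 and RAB11A in front, summed to 609 and 609.6 TPM in control and to 604 and 589.7 TPM in KO+OE, a mean of 39.2% of the RAB total. The 19 members of ER to Golgi and Golgi traffic held 35.3%, and RAB34 and RAB1B made up most of that sum. The 7 early endosome members held 11.4% and the 10 members of late endosomes, lysosomes and related organelles 10.5%. The 9 members of regulated secretion held 1.95%, at 32.2 and 30.8 TPM in control and 28.9 and 28.5 TPM in KO+OE. The 3 RAB40 genes, which carry a domain that joins a ubiquitin ligase, held 1.49%, and the 2 genes placed with the cilium, RAB23 and RAB28, 0.181%. A RAB can serve several routes, so the groups are a reading aid.

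Some members known from specialised cells were near the bottom of the list. RAB27A, which docks melanosomes and secretory lysosomes, was at 0.21 to 0.59 TPM, and RAB27B did not exceed 0.01 TPM. RAB44 did not exceed 0.06 TPM. The other members of regulated secretion were higher, and RAB37, an exocytic RAB, was at 6.34 and 6.12 TPM in control and 5.41 and 5.0 TPM in KO+OE, with the groups apart. RAB23, a negative regulator of Hedgehog signalling, was at 0.09 to 0.25 TPM. The 9 members near the limit of testing, with means of 0.5 to 2 TPM, covered 0.25 to 2.44 TPM. RAB6C was listed at 0 in all 4 libraries and RAB6D did not exceed 0.04 TPM. Both are near-identical copies of RAB6A, so reads of the copies may have been lost or shared between them and their values are uncertain.

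The remaining members filled the middle of the range. On the outward routes, RAB10, which delivers basolateral and GLUT4 cargo, covered 26.1 to 32.5 TPM over the 4 libraries, RAB35, a regulator of fast recycling and of the actin cortex, 25.6 to 28.0 TPM, RAB15 14.9 to 16.7 TPM and RAB14, which links endosomes and the Golgi, 4.01 to 4.84 TPM. On the early endosome, RAB20 lay at 22.2 to 24.9 TPM, RAB31 at 6.88 to 8.67 TPM, RAB21, known for integrin uptake, at 1.30 to 1.99 TPM and RAB22A at 0.31 to 0.55 TPM. The early endosome of these libraries was thus represented mainly by RAB5C, RAB5B and RAB20.

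Among the late endosomal and lysosomal members, RAB32 and RAB38, which build melanosomes and other lysosome-related organelles, covered 21.7 to 24.1 and 11.3 to 13.0 TPM. RAB9A, which serves retrieval from late endosomes to the trans-Golgi, covered 10.9 to 14.6 TPM, and RAB12 9.69 to 11.9 TPM. RAB24, a RAB linked to autophagy, covered 20.1 to 22.5 TPM and overlaps MXD3 on the same strand, at 13.2 to 18.6 TPM. RAB42 and RAB29, the second of which recruits the kinase LRRK2, were lower, at 3.54 to 4.36 and 1.47 to 2.0 TPM. RAB7A and RAB9A held 99.5% ± 0.07 and 99.8% ± 0.16 of their families, since RAB7B lay at 0.37 to 0.50 TPM and RAB9B did not exceed 0.04 TPM.

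Of the Golgi members not shown elsewhere, RAB39B covered 1.80 to 2.71 TPM and RAB30 0.89 to 1.29 TPM. RAB36, RAB19, RAB39A and RAB33B had means under 1 TPM, with values between 0.25 and 1.12 TPM, and RAB41 did not exceed 0.20 TPM. RAB28, a ciliary RAB, covered 2.11 to 3.05 TPM and RAB40A 0.19 to 0.49 TPM. RAB13, named above, was at 61.7 and 61.2 TPM in control and 64.6 and 64.9 TPM in KO+OE. It overlaps the protein-coding gene ENSG00000285641 on the same strand, which went the other way. That gene was at 15.2 and 13.3 TPM in control and 10.7 and 10.7 TPM in KO+OE. Whether the division of reads between both rows made the difference of RAB13 was not tested.

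Several RAB numbers are shared by paralogs that arose by duplication and often act on the same membranes. In 14 such families, with 34 members, at least 2 members were in the table, and 9 families had at least 2 tested members. To show how near the proteins and how far apart the transcripts of such pairs are, the coding stretch around the conserved motif that contacts the nucleotide is printed for RAB1 and RAB11. Capitals mark a G or a C at the third position of a codon. Each stretch has 45 bases and 15 codons, read 5′ to 3′ on the coding strand from GENCODE 44 canonical transcripts on GRCh37.
RAB1A: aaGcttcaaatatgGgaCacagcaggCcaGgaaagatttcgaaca
RAB1B: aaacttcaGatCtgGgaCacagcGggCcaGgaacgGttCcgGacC
RAB11A: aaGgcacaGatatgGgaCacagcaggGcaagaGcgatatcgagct
RAB11B: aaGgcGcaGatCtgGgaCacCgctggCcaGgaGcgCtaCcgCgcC

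The stretches lie in coding exons. RAB11A's is at chr15:66169810-66169854 and RAB11B's at chr19:8464887-8464931, each within 1 exon on the plus strand. Those of the RAB1 pair are split by an intron, within chr2:65318180-65325116 on the minus strand for RAB1A and chr11:66039712-66039868 on the plus strand for RAB1B. Within each pair all 15 codons encode the same residues. RAB1A and RAB1B shared 7 of the 15 codons, and RAB11A and RAB11B 5. The third position was G or C in 5 codons of RAB1A against 11 of RAB1B, and in 6 of RAB11A against 14 of RAB11B. Over the whole coding sequence the identity between pair members was 75.3% for RAB1 and 73.2% for RAB11.

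RAB1 proteins open the ER to Golgi route, and RAB1B had by far the higher TPM of the pair. RAB1B was at 194 and 199.9 TPM in control and 196 and 203 TPM in KO+OE. RAB1A was at 7.97 and 9.31 TPM in control and 7.41 and 7.0 TPM in KO+OE. RAB1B thus supplied 96.2% ± 0.47 of the pair's TPM (SD, n = 4), a 25.0-fold difference of the means.

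RAB11 proteins run the recycling endosome, and both genes were high. RAB11B was at 109.6 and 111 TPM in control and 109 and 112 TPM in KO+OE. RAB11A was at 72.0 and 62.8 TPM in control and 71.6 and 70.7 TPM in KO+OE. The share of RAB11B was 61.5% ± 1.68.

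RAB5 proteins drive fusion of early endosomes, and here the 3 genes were ordered C, B and A in every library. RAB5C was at 104 and 107 TPM in control and 101 and 106 TPM in KO+OE. RAB5B was at 33.4 and 30.6 TPM in control and 31.8 and 32.7 TPM in KO+OE, and RAB5A at 6.31 and 5.69 TPM and at 4.87 and 5.77 TPM. The share of RAB5C was 73.5% ± 0.94, and the groups overlapped for each of the 3 genes.

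RAB4 proteins return cargo quickly from early endosomes to the surface. RAB4A was at 38.5 and 37.8 TPM in control and 24.9 and 29.1 TPM in KO+OE. RAB4B was at 18.4 and 22.7 TPM in control and 24.3 and 16.6 TPM in KO+OE. RAB4A was the higher of the pair in all 4 libraries, with 50.6% to 67.7% of the sum. The groups were apart for RAB4A and overlapped for RAB4B, which shares its strand and exons with the readthrough gene RAB4B-EGLN2 at 2.63 to 3.88 TPM.

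RAB8 proteins carry vesicles to the plasma membrane and into cilia. RAB8A was at 19.54 and 20.02 TPM in control and 19.1 and 20.1 TPM in KO+OE, against 1.12 and 0.85 TPM and then 1.69 and 0.97 TPM for RAB8B. RAB8A held 94.4% ± 1.80 of the pair. RAB2 proteins act between the ER, the Golgi and lysosomes. RAB2A was at 30.6 and 36.0 TPM in control and 27.6 and 26.4 TPM in KO+OE, with RAB2B at 6.62 and 6.10 TPM and at 6.47 and 6.33 TPM. RAB2A held 82.4% ± 2.21 of the pair.

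RAB3 proteins regulate exocytosis in neurons and endocrine cells, and all 4 of their genes were detected at low levels. RAB3A led with 12.9 and 11.2 TPM in control and 11.9 and 12.1 TPM in KO+OE. RAB3C was at 4.37 and 4.56 TPM and then at 3.87 and 3.32 TPM, RAB3D at 3.94 and 3.95 TPM and then at 3.88 and 3.41 TPM, and RAB3B at 2.15 and 2.31 TPM and then at 2.24 and 2.26 TPM. RAB3A held 54.4% ± 2.73 of the 4. RAB3D overlaps TMEM205, which lies on the same strand at 163 to 178 TPM, so its values may hold reads of that gene.

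RAB6 proteins act at the trans-Golgi, and this was the tested family without a firm order. RAB6B was at 4.72 and 7.12 TPM in control and 5.14 and 5.13 TPM in KO+OE. RAB6A was at 4.91 and 4.42 TPM in control and 4.96 and 4.59 TPM in KO+OE. RAB6B was the higher in 3 of the 4 libraries. It overlaps SRPRB on the opposite strand, at 20.7 to 24.2 TPM, and the strand setting is not known. RAB6A may share reads with its near-identical copies RAB6C and RAB6D. In the RAB40 family RAB40C was at 21.0 and 19.2 TPM and then at 23.4 and 19.5 TPM, against 1.57 and 1.54 TPM and then 2.37 and 1.33 TPM for RAB40B. RAB40C held 90.9% ± 0.72 of the family, and it overlaps WFIKKN1 on the same strand, at 14.9 to 15.5 TPM. Thus in 8 of the 9 tested families the gene with the highest mean was above the next gene in all 4 libraries. Leading genes were picked by that mean, so this is a description.

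**Figure D2:**
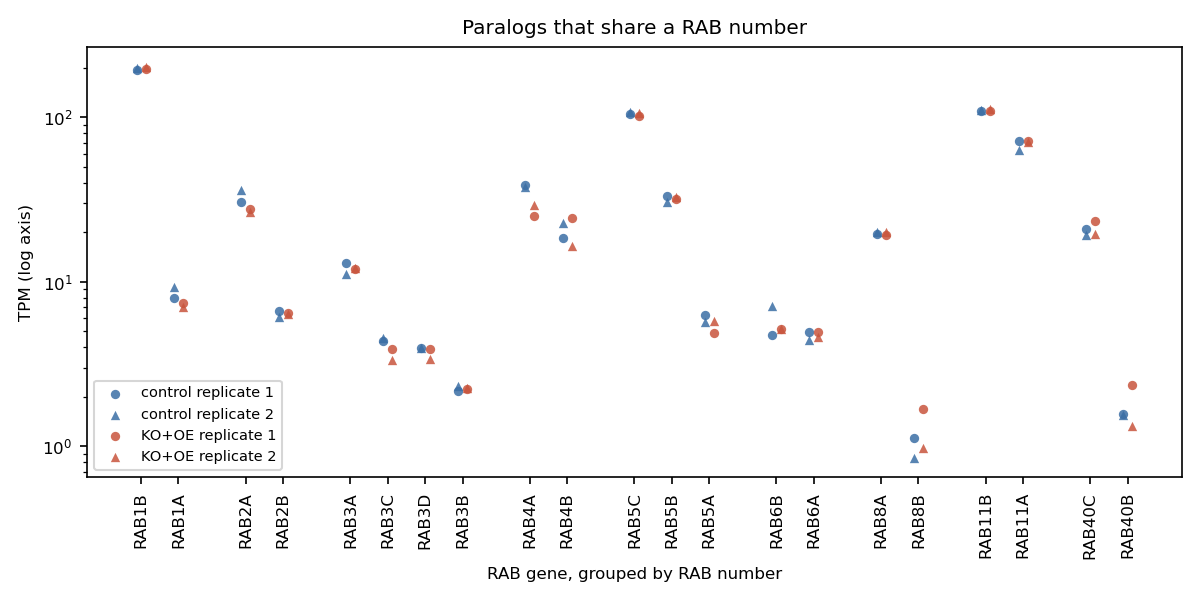
TPM on a log axis for the members of the 9 RAB numbers with at least 2 tested genes, with blue marks for the control and red marks for the KO+OE libraries. RAB1B lies 25.0-fold above RAB1A by the means, while RAB6B and RAB6A overlap.

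Whether the balance of paralogs moved with the group was compared by the difference of log2(TPM + 1) between the leading and the next gene. It differed between KO+OE and control by -0.46 for RAB4, by -0.30 for RAB2, by 0.25 for RAB1 and by 0.25 for RAB3. The other 5 families differed by -0.23 to -0.04. In the two-sided exact permutation test 2 libraries against 2 cannot go below p = 0.33, and the 9 families gave p-values between 0.33 and 1, all 1 after Benjamini-Hochberg adjustment over the 9.

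The members also differed in what the rule did not use, the base composition and length of their transcripts. Canonical transcripts were found for 62 of the 63 genes. Of the 27 with at least 50% G or C, 24 had a mean of at least 1 TPM, 7 of them at least 50 TPM, and the median level was 19.7 TPM. Of the 35 with less G or C, 24 had at least 1 TPM, 2 of them at least 50 TPM, and the median was 2.42 TPM. Tested genes of all kinds with a coding sequence, which had passed the filter of 1 TPM, differed in the same direction. Their medians were 15.3 TPM at 50% or more and 4.83 TPM below. Across the 62 genes Spearman's rho between mean TPM and GC content was 0.43, and it lay between 0.42 and 0.43 in each library. Among the 48 tested RAB genes rho was 0.42, beside 0.27 over 12147 tested genes of all kinds. For G or C at the third position of codons it was 0.26 across the 62 and 0.14 across the 48, beside 0.26 over 10610 tested genes with a coding sequence. With transcript length rho was -0.44 across the 62 and -0.48 across the 48, beside -0.19 across all tested genes. These are correlations across genes, which share libraries and are not replicates, and TPM itself divides by a length. Whether base composition affected the measured levels, also between paralogs, was not tested.

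Among paralogs the richer transcript in G and C was the leading one in 7 of the 9 tested families, and in 9 of the 13 families with a transcript for both members. The 7 include RAB6, whose order was not firm. RAB1B had 60.4% G or C against 38.2% for RAB1A, and RAB8A 52.2% against 34.9% for RAB8B. RAB5C had 56.2% against 46.1% for RAB5B, the next gene by level, and 41.9% for RAB5A. RAB4A, with 39.5% against 61.6% for RAB4B, and RAB2A, with 37.3% against 43.0% for RAB2B, went the other way. RAB11A was among the 10 highest members with a lower percentage of G and C than RAB1A.

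**Figure D3:**
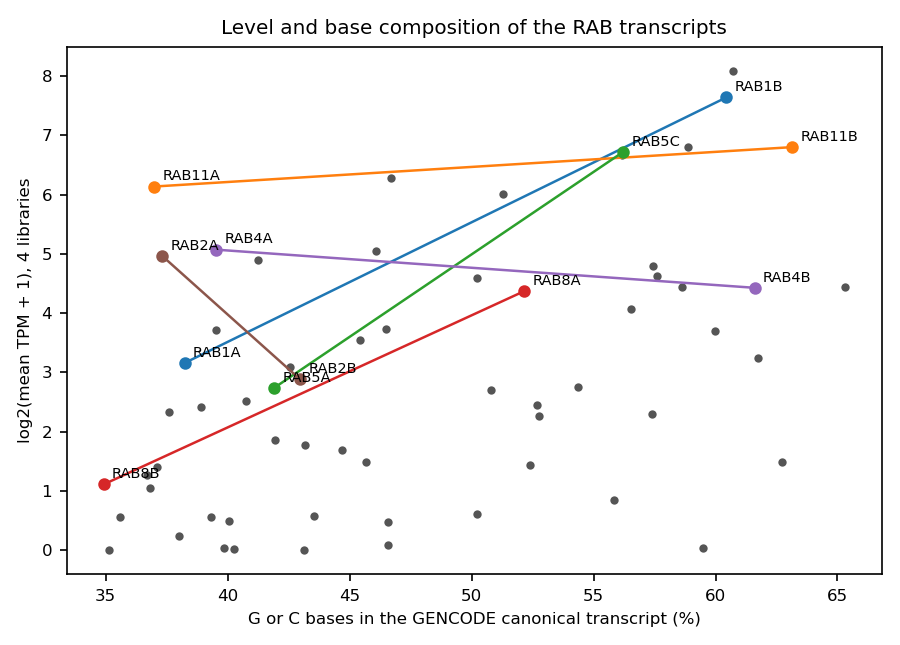
Mean level over the 4 libraries as log2(mean TPM + 1) against the percentage of G or C in the canonical transcript, 1 point for each of the 62 RAB genes with a transcript, with lines joining 6 paralog pairs. RAB1B, RAB11B, RAB5C and RAB8A lie to the right of and above their partners, and RAB4A and RAB2A lie to the left of and above theirs. The partner drawn for RAB5C is RAB5A, the lowest gene of its family.

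The comparison of KO+OE with control cells asked whether the RAB genes differ between H9 cells and an edited clone to which CFIm25 was returned. Fold changes are differences of log2(TPM + 1), KO+OE minus control, tested with limma over all 12319 genes of at least 1 TPM. No RAB gene passed an adjusted p of 0.05, and the lowest adjusted p among them was 0.705. Of all genes tested 0.00812% passed. At an unadjusted p under 0.05 there were 3 RAB genes of 48, 1 higher and 2 lower in KO+OE, which is 6.25% beside 5.33% of all genes tested (2.26% higher and 3.06% lower). None of the 48 combined that p with a 2-fold difference, which 0.43% of all genes did. The median log2 fold change was -0.01 for the RAB genes and -0.01 for all genes, and 22 of the 48 were higher and 26 lower in KO+OE. The groups did not overlap for 15 of the 48, or 31.25%, beside 34.1% of all genes, and 3 of the 48 were so in the higher direction and 12 in the lower, beside 14.5% and 19.6% of all genes. The 3 higher were RAB13, RAB9A and RAB43, and the 12 lower were RAB7A, RAB4A, RAB2A, RAB35, RAB32, RAB15, RAB1A, RAB31, RAB37, RAB3C, RAB42 and RAB3D. RAB13 and RAB43 each overlap a same-strand gene that was lower in KO+OE.

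On the log2(TPM + 1) scale all 48 had a 95% interval of limma inside a 2-fold change, as had 92.6% of all genes tested, and 36, or 75%, had one inside a 1.5-fold change, beside 71.0% of all genes. That scale narrows the intervals of low genes. With 0.1 TPM added in place of 1, a count taken after seeing the data, 42 of the 48 lay inside a 2-fold change. The log2 fold change was 0.04 (95% interval -0.06 to 0.15) for RAB34, 0.02 (-0.08 to 0.11) for RAB1B, 0.00 (-0.10 to 0.11) for RAB11B, -0.03 (-0.18 to 0.12) for RAB17 and -0.03 (-0.14 to 0.09) for RAB5C.

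**Figure D4:**
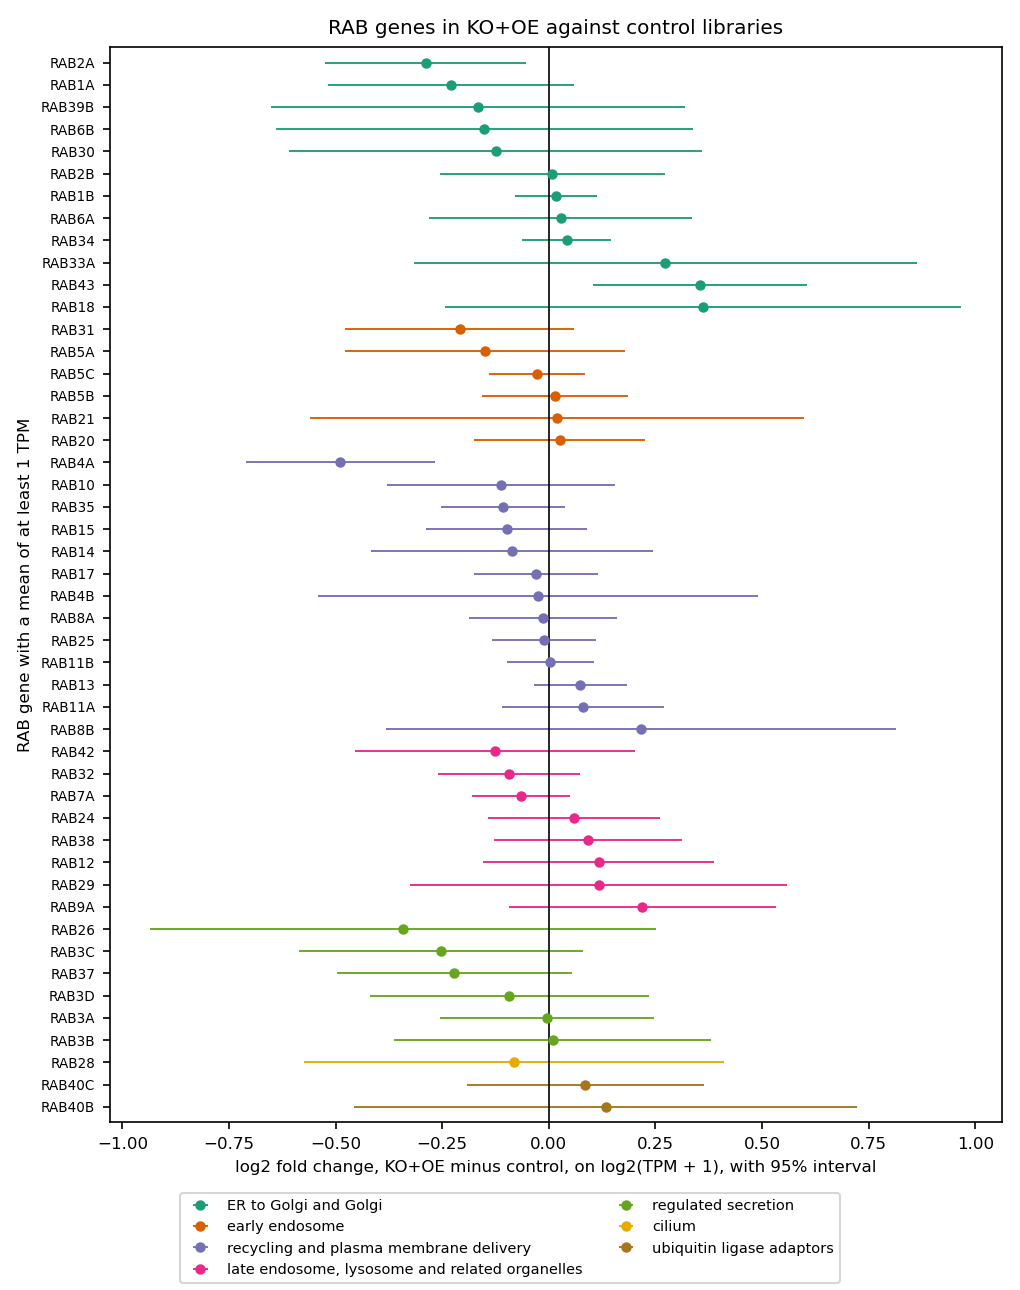
Log2 fold change, KO+OE minus control, of the 48 tested RAB genes with limma's 95% interval, coloured by the route of the protein and ordered within each route. RAB4A, RAB2A and RAB43 are the 3 rows whose interval does not include 0, and on this log2(TPM + 1) scale no interval reaches a 2-fold change.

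RAB4A (chr1:229406809-229441641, plus strand, GRCh37) had the lowest p of the RAB genes. Its 2 control libraries, at 38.5 and 37.8 TPM, lay above both KO+OE libraries, at 24.9 and 29.1 TPM. The means were 38.2 ± 0.50 and 27.0 ± 2.93 TPM (SD, n = 2), and the log2 fold change was -0.49 (95% interval -0.71 to -0.27). By limma the p was 0.00233 and 0.705 after adjustment, so it did not pass the test. The unadjusted p stayed below 0.05 in all 12 alternatives tried, at 0.00173 to 0.0215.

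RAB2A, at 33.3 ± 3.80 TPM in the control and 27.0 ± 0.86 TPM in KO+OE, had a log2 fold change of -0.29 (95% interval -0.52 to -0.05; limma, unadjusted p = 0.0255, adjusted p = 0.928). The control libraries were both above the KO+OE libraries, but differed from each other by more than the groups' nearest values did. By limma its unadjusted p ran from 0.00847 to 0.134 over 12 alternatives and was below 0.05 in 8. It was 0.0932 when control replicate 2 was left out, 0.0841 and 0.134 when KO+OE replicate 1 or 2 was, and 0.0586 with a constant prior.

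RAB43 (chr3:128806412-128841644, minus strand), a RAB of the ER and Golgi, was the 1 member of the 3 that was higher in KO+OE, at 6.99 and 7.64 TPM in control and 9.33 and 9.91 TPM in KO+OE. The fitted log2 fold change was 0.35 (95% interval 0.10 to 0.60; limma, unadjusted p = 0.0152, adjusted p = 0.928), and the unadjusted p was below 0.05 in 9 of 12 alternatives. It was 0.0804 when control replicate 1 was left out, and 0.0516 and 0.0901 when KO+OE replicate 1 or 2 was. RAB43 shares exons with the readthrough gene ISY1-RAB43, which was at 4.15 and 3.98 TPM in control and 3.86 and 2.89 TPM in KO+OE. Added together the pair was at 11.1 and 11.6 TPM and then at 13.2 and 12.8 TPM, a log2 ratio of 0.19, so the division of reads between both rows bears on the size of the difference.

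**Figure D5:**
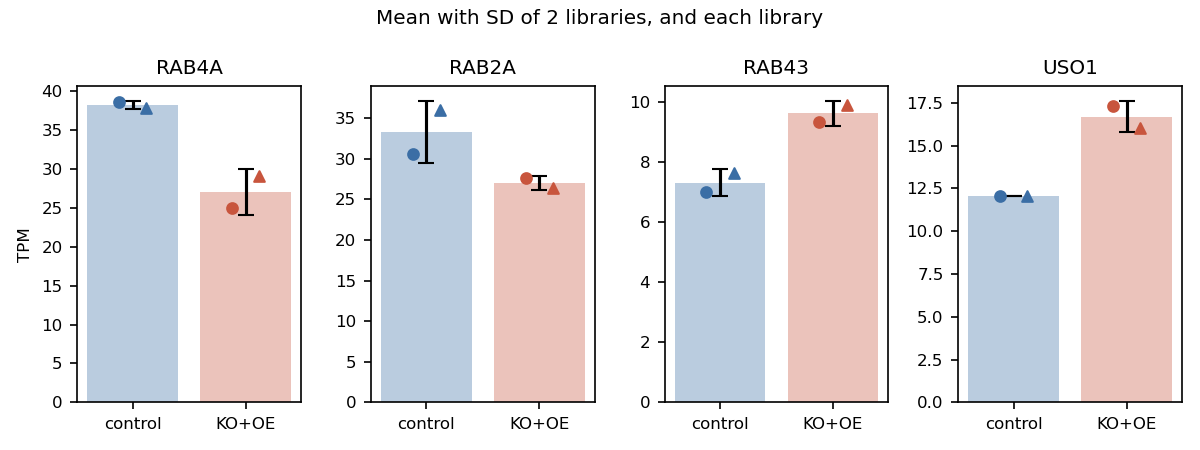
TPM of RAB4A, RAB2A, RAB43 and the RAB1 effector USO1 in control (blue) and KO+OE (red) libraries, with bars for the mean, error bars for the SD of 2 libraries and 1 mark per library. The groups do not overlap in any of the 4 panels, and each axis starts at 0. The 4 genes were picked by limma's unadjusted p under 0.05 in this same comparison, so their separation follows largely from the choice. The groups do not overlap for 34.1% of all genes tested.

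The other members with the widest fold changes were low genes with broad intervals. RAB18, a RAB of lipid droplets and the ER, was at 1.31 and 0.88 TPM in control and 1.30 and 2.12 TPM in KO+OE, for a fitted log2 fold change of 0.36 (95% interval -0.24 to 0.97). That value ran from 0.14 to 0.58 when 1 library was left out, and was 0.58 with 0.1 TPM added and 0.14 with 5. RAB33A, which acts at the Golgi, was at 2.91 and 5.05 TPM and then at 4.97 and 4.79 TPM, a log2 fold change of 0.27 (95% interval -0.32 to 0.86) that became -0.04 without control replicate 1. RAB26, a RAB of secretory granules, was at 1.78 and 2.44 TPM and then at 1.09 and 1.85 TPM, a log2 fold change of -0.34 (95% interval -0.93 to 0.25). It ran from -0.57 to -0.12 when 1 library was left out, and was -0.52 with 0.1 TPM added and -0.14 with 5. The groups overlapped for all 3 genes.

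By route, the 3 genes at an unadjusted p under 0.05 included 2 of the 12 tested members of ER to Golgi and Golgi traffic (16.7%). Of these, 1 was higher and 1 lower in KO+OE. The third was 1 of the 13 of recycling and membrane delivery (7.69%). The share over all genes tested was 5.33%, and whether routes differ in such small counts was not tested. There was none among the 6 early endosome members, the 8 of late endosomes and lysosomes, the 6 of regulated secretion, the 1 cilium gene or the 2 RAB40 genes. Regulated secretion had 5 of its 6 members lower in KO+OE, with a median log2 fold change of -0.16, and its widest members after RAB26 were RAB3C at -0.25 and RAB37 at -0.22. Of all genes tested 54.5% were lower, the direction of the 6 was not tested, and none of them was at an unadjusted p under 0.05. Late endosomes and lysosomes had 5 of 8 higher, with a median of 0.08. The other routes with more than 2 tested members had medians of -0.03 to 0.01.

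CFIm25 binds the sequence UGUA upstream of cleavage sites, so the last 100 bases of each canonical transcript were searched for TGTA on the sense strand. It was present in 32 of the 48 tested RAB genes (66.7%) and in 53.2% of 10173 tested coding genes with a 3′ UTR of at least 100 bases. The median log2 fold change was -0.05 for the 32 genes and 0.02 for the other 16. RAB4A and RAB2A, which were lower in KO+OE, and RAB43, which was higher, were among the 32. Whether the motif bears on the fold changes was not tested. The sites of RAB4A and RAB43, the pair with the lowest p, are shown with 30 bases each and TGTA in capitals, and lie in the 3′ UTR at chr1:229441539-229441568 on the plus strand and chr3:128806439-128806468 on the minus strand (GRCh37).
RAB4A: attacttgtggctTGTAtaagagtggctga
RAB43: ggcagagccagagTGTAcacattcctaaac

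The site starts 90 bases before the annotated end of RAB4A and 41 bases before that of RAB43. A match is a description of the annotated end. The ends used in these cells were not measured by this table.

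The machinery that loads, recycles and reads the RABs was followed with a list of 136 genes, all found, of which 104 were tested. At an unadjusted p under 0.05 there was 1 of the 104, or 0.962%, beside 5.33% of all genes, and none passed the adjusted p. The median log2 fold change of the 104 was 0.01. The 1 gene was USO1, a tether of Golgi vesicles that active RAB1 recruits. It stood at 12.04 TPM in each control library against 17.3 and 16.1 TPM in KO+OE, for a fitted log2 fold change of 0.44 (95% interval 0.24 to 0.64; limma, unadjusted p = 0.00246, adjusted p = 0.705). None of the 34 tested exchange factors, 27 GTPase-activating proteins and 8 genes of prenylation and recycling was at an unadjusted p under 0.05, and their median log2 fold changes were 0.04, 0.02 and -0.02.

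GDI2, a GDP dissociation inhibitor that keeps inactive RABs soluble, was abundant. It was at 133 and 134 TPM in control and 140.4 and 131 TPM in KO+OE, and the groups overlapped. The subunits of the transferase that prenylates RABs stood apart from each other. RABGGTA was at 26.8 and 22.4 TPM in control and 27.3 and 25.9 TPM in KO+OE, and RABGGTB at 4.24 and 4.26 TPM and then at 3.49 and 4.18 TPM, with log2 fold changes of 0.11 (95% interval -0.14 to 0.37) and -0.12 (-0.46 to 0.22). The escort proteins that present new RABs to the transferase were low. CHML was at 0.66 and 0.67 TPM in control and 0.73 and 1.04 TPM in KO+OE, and CHM did not exceed 0.3 TPM.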

How the data were processed

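Polyadenylated RNA of 2 control and 2 KO+OE H9 libraries was sequenced as paired reads, and groups were taken from the sample titles. The authors deposited 1 table of 60671 Ensembl genes whose header names no unit. Columns were matched to the groups by the letters c and f, read as control and Flag, and the replicate number. The labels do not spell this out, but a supplementary copy of the table heads the f columns KO+OE. The columns hold decimals and sum to 986853 to 987078, so the deposited values were read as TPM. The submitters' processing notes name HISAT2, featureCounts, Subread, DESeq2 and hg38, without versions or order. The strand setting of the counting is not given in the sources used here, and 19 members overlap another gene of at least 1 TPM. The table holds no counts, so depth is unknown, count tests were not used, and precision rests on the 2 libraries per group. Nothing says that these came from separate cultures, so p-values measure the spread between libraries, which may be technical. There were 0 further columns of sample values. Mitochondrial genes took 21.0% to 22.1% of the libraries.

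Genes averaging 1 TPM or more were compared on log2(TPM + 1), a scale that understates changes of low genes, with limma 3.58.1 in R 4.3.3 (eBayes with a mean-dependent prior, group as the only term, two-sided), with Benjamini-Hochberg adjustment over all 12319 genes. The test was also run on data simulated for this comparison over 12319 genes. There it recovered 100% of 2-fold changes in genes of 10 TPM or more and 75.0% in lower genes. It recovered 100% and 97.1% of 4-fold changes, and called 0 to 7 genes with none changed. In the fit to the deposited values the prior had a median of 3.01 degrees of freedom. Recovery with the gene-to-gene spread of the deposited values was not tested, so these shares hold for the simulated data only. The members and gene lists were chosen with earlier results of these data known. Values in each library are given for families with at least 2 tested members, the 5 highest members, tested members at an unadjusted p under 0.05, the 3 widest changes in each direction, and regulators at an unadjusted p under 0.05 or acting in prenylation and recycling, of which 1 gene is not reported here. Other members are given by their range. Transcript sequences and positions came from GENCODE 44 on GRCh37, matched by Ensembl identifier, whereas the notes name hg38. Numbers were computed with Python 3.11.15, pandas 2.3.3, scipy 1.17.1 and biopython 1.88. Alternatives were other pseudocounts, filters, scalings and priors, a replicate block, and leaving out each library.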

Additional observations from a re-analysis of the deposited data

How the results depend on the processing

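No RAB gene passed an adjusted p of 0.05 under any of the alternatives, which changed the pseudocount to 0.1 or 5 TPM, the filter, the scaling, the prior or the libraries. The count at an unadjusted p under 0.05 was 3 as reported, and ran from 1 to 3 when a library was left out. With KO+OE replicate 2 left out it was 1. The median log2 fold change of the tested RAB genes, -0.012 as reported, was 0.00079 after rescaling by median ratios and 0.00493 after quantile normalization, and ran from -0.03876 to -0.01231 without each library. The log2 ratio of the summed RAB TPM became 0.00116 after rescaling by median ratios. RAB33A ran from -0.0413 to 0.5885 without each library. The group difference of the paralog ratio changed sign for RAB5 (-0.1226 to 0.0399), RAB6 (-0.4952 to 0.1351), RAB8 (-0.4897 to 0.0291), RAB11 (-0.1835 to 0.0297) and RAB40 (-0.1868 to 0.0912) when 1 library was left out, and kept its sign for RAB1 (0.1651 to 0.3262), RAB2 (-0.4616 to -0.1329), RAB3 (0.126 to 0.3688) and RAB4 (-0.8348 to -0.0922). Where a group was left with 1 library, that library was assumed to vary like the other group. Deviations of same-numbered libraries correlated at -0.05 across genes. With 2 libraries per group this cannot tell whether same-numbered libraries were handled together, and the labels do not say. With a replicate block the count at an unadjusted p under 0.05 was 3 and the median -0.012, and no adjusted call appeared. The cause of these shifts was not tested. With 2 libraries per group and no counts, differences of the low RAB genes were hard to resolve.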
